A study of Mus musculus with 18 samples.

Results

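The 33 genes described here encode enzymes that build the bases, nucleotides and deoxynucleotides of the cell and that supply the folate-bound carbon this synthesis consumes. The members were the rows of the count table whose Ensembl gene identifier carries one of the 33 symbols in the GENCODE annotation of the mouse genome (GRCm38), and each symbol matched 1 of the 48023 genes listed. All 33 passed the filter on low counts, which left 15071 genes for testing, and the lowest count of any member in any library was 313 reads, for Nme2.

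The cells were an immortalized line of mouse brown preadipocytes, the precursor cells of brown fat, cultured from brown fat stroma and immortalized with SV40 T antigen. They received vehicle (Veh) or FGF6, a fibroblast growth factor, for 4, 8 or 24 h, and the labels give no difference between the groups other than agent and time. RNA sequencing gave 18 libraries, 3 in each of the 6 groups, with 24327816 to 33471980 counts each. T antigen itself acts on the cell cycle, so that a line carrying it in every group is limited as a model of the resting precursor, and a bulk library cannot tell less RNA per cell from fewer cells.

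Purine synthesis starts with Prps1 and Prps2, which make the activated ribose, and Ppat, which commits it to the purine ring; Gart, Pfas, Paics, Adsl and Atic then complete the ring as IMP, from which Adss, Impdh1, Impdh2 and Gmps lead to AMP and GMP. Pyrimidine synthesis runs through Cad, Dhodh and Umps to UMP, and Ctps and Ctps2 turn UTP into CTP. Ribonucleotide reductase (Rrm1 and Rrm2) and thymidylate synthase (Tyms) make deoxynucleotides for DNA, and the folate enzymes Shmt1, Shmt2, Mthfd1, Mthfd1l and Mthfd2 move carbon from serine to the purine ring and to thymidylate. Cells that are about to divide are known to raise these enzymes, several of which are textbook targets of MYC and of E2F factors.

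Letters known to be read by such factors were looked for on both strands of the RefSeq promoter windows of GRCm38.p6, which run from 250 bases before to 50 bases after each start and existed for 31 of the 33 members (not for Dhodh and Pfas). The E-box CACGTG, the letters bound by MYC with MAX, stood in a window of 6 of these 31 genes (19.4%), against 8.09% of all 27025 genes with a window. The E2F letters TTTGGCGC, TTTCCCGC or TTTCGCGC stood in 2 (Ppat and Prps2; 6.45%, against 2.12%), TGATGNAAT, bound by ATF4 with C/EBP factors, in 0 (1.08% of all genes), and CCAAT in 13 (41.9%, against 41.1%). None of these motifs contains another. The stretches below are 30 bases each, written 5′ to 3′ on the strand of the gene with the motif in capitals, and were chosen because the E-box genes include both a member that rose strongly (Atic) and one that barely moved (Paics), because Ppat carried the E2F letters (here as the reverse strand of TTTCCCGC) in 2 places, and because Shmt1 showed the largest rise of all members.
Atic, chr1:71557137-71557166, plus strand: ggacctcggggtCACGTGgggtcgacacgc
Impdh2, chr9:108560314-108560343, plus strand: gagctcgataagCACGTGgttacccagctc
Paics, chr5:76951087-76951116, plus strand: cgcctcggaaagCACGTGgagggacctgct
Tyms, chr5:30073669-30073698, minus strand: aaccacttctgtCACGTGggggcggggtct
Dtymk, chr1:93802065-93802094, minus strand: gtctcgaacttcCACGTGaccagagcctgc
Ppat, chr5:76951771-76951800, minus strand: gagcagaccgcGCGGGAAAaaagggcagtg
Ppat, chr5:76951718-76951747, minus strand: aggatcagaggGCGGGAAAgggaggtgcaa
Shmt1, chr11:60811295-60811324, minus strand: atgctcccactgATTGGgccgctgtagggg
Capitals in the Shmt1 stretch are CCAAT on the other strand. The 2 genes with E2F letters moved in opposite directions with FGF6, Ppat being higher and Prps2 lower at every time. A match is a description of the letters in the window and not evidence that a factor was bound.

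One library stood apart before any comparison. Within a group, the counts of 2 libraries differed over genes by a chi-square of 2.37 to 7.35 per degree of freedom, but the third vehicle library at 24 h differed from its group by 35.7 and 39.2. Values without it stand beside the 24 h results; leaving it out moved the 24 h log2 fold change of a member by between -0.01 and 0.09. Markers of other cells were summed in CPM (counts scaled to a library total of 1000000, here without TMM factors). The 6 macrophage markers summed to 14.7 to 15.9 CPM in vehicle and 43.6 to 46.2 CPM with FGF6 at 24 h, led by Cd14, with Adgre1 and Ptprc at no more than 3 counts in any library. This rise was that of Cd14 alone (log2 fold change 2.49 at 24 h, fitted to all 18 libraries). The other macrophage markers tested were called lower there, with log2 fold changes of -0.85 for Cd68, -1.77 for Csf1r and -4.52 for Lyz2. The 5 muscle markers, led by Myog, summed to 5.77 to 6.54 and 1.58 to 2.09 CPM in the same groups, with Myf5 and Pax7 at no more than 3 counts. The 5 endothelial markers summed to 0.986 to 1.34 and 3.64 to 5.57 CPM, with Emcn at no more than 3 counts. This rise was mainly that of Cdh5 (log2 fold change 5.84 at 24 h, from a low level). Kdr was not called there (0.39, adjusted p = 0.281), and Pecam1, Tek and Emcn were too low to be tested. Of the 8 preadipocyte markers, Dlk1 was at 0 in all libraries, and the summed level of the list, led by Col1a1, was 4221.4 to 4624.7 CPM in vehicle and 742.3 to 798.4 CPM with FGF6 at 24 h. Within that list Cd34 was called higher at 24 h (log2 fold change 1.38), and the others tested were called lower. The 7 markers of mature adipocytes, led by Lpl, summed to 1502.1 to 1602.9 and 145.9 to 149.3 CPM in the same groups. Scaled by TMM factors, Lpl averaged 1421.4 CPM and Fabp4 160.1 CPM in vehicle at 24 h. Adipoq, Plin1 and Cidec averaged only 0.612, 0.864 and 4.32 CPM there. Lep was at 0 in all libraries, and Retn, with at most 11 counts, was not tested. The part of these shifts in the results below was not tested.

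Most of the enzymes were higher with FGF6. By edgeR's quasi-likelihood test with adjustment over all genes (false discovery rate, FDR, under 0.05), 24 of the 33 members were higher with FGF6 at 4 h and 8 were lower, 26 were higher and 6 lower at 8 h, and 26 were higher and 3 lower at 24 h. Over all genes tested, 28.6% were called higher and 34.2% lower at 4 h, 32.4% and 38.4% at 8 h, and 35.9% and 37.9% at 24 h. The median log2 fold change of the members was 0.25, 0.49 and 0.57 at the 3 times, against -0.05, -0.05 and -0.02 over all genes. Without the third vehicle library, the 24 h counts were 28 higher and 3 lower, with a median of 0.62. The median over all genes was then 0.02, and 36.8% and 34.2% of all genes were called higher and lower.

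Larger changes were mostly rises. At least 1.5-fold higher were 5 members at 4 h, 14 at 8 h and 16 at 24 h, against 9.7%, 13.8% and 15.3% of all genes. At least 1.5-fold lower was 1 member at each time (Ctps2 at 4 and 8 h, Prps2 at 24 h), against 13.7%, 19.6% and 23% of all genes. When TMM factors were left out, 2 members were at least 1.5-fold higher and 2 at least 1.5-fold lower at 4 h, and the 4 h median was 0.15. At 24 h these counts were 18 and 0 without the third vehicle library, since Prps2 then stood at -0.56. In all, 22 members were called higher at every time, where 20.4% of all genes were, and 3 (Ctps2, Prps2 and Cmpk1) were called lower at every time, where 23% of all genes were.

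**Figure D1:**
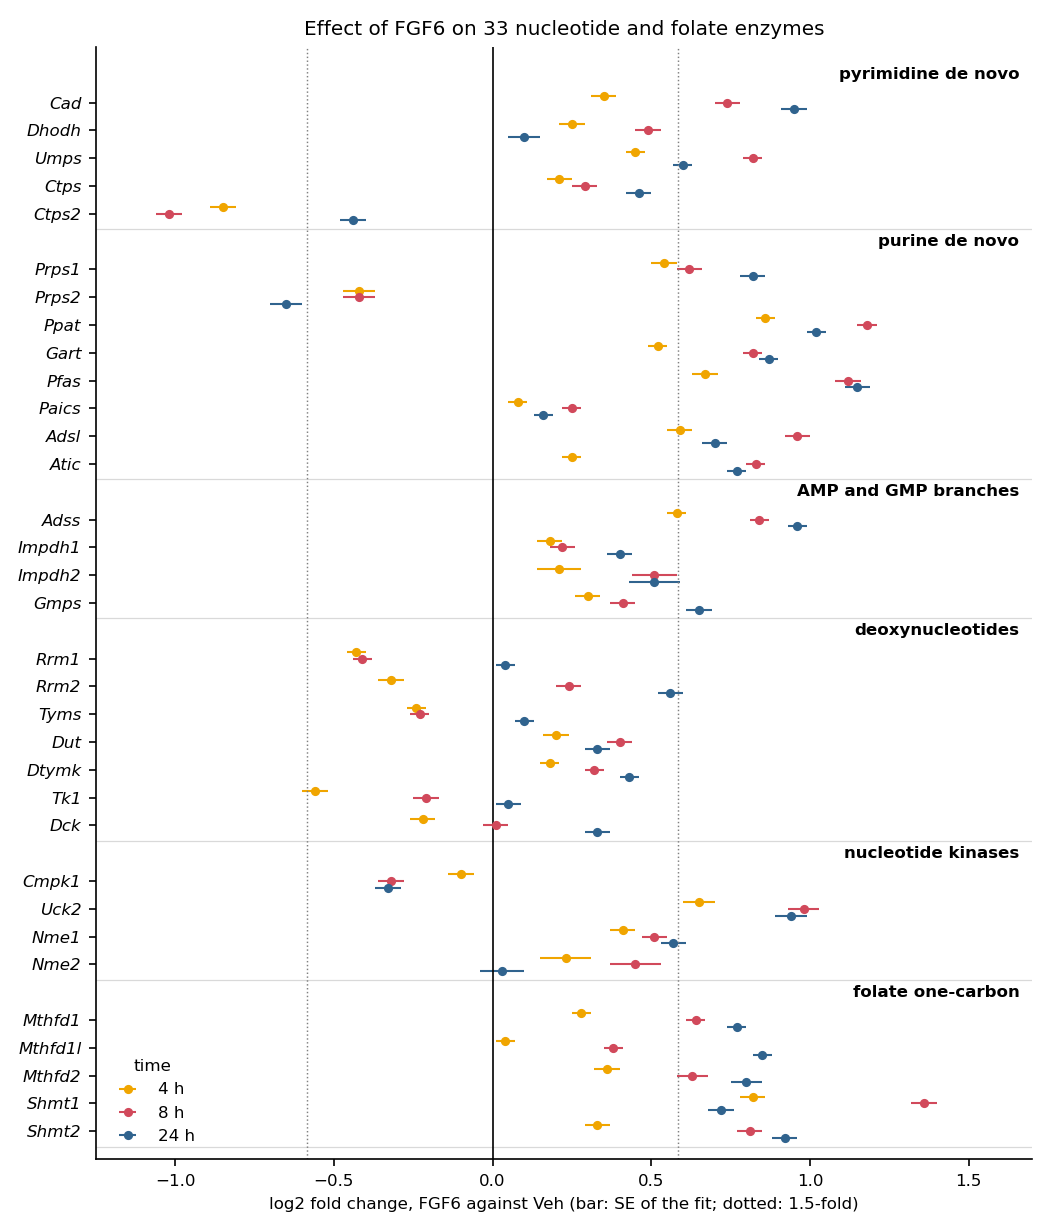
Effect of FGF6 on each of the 33 members. Points give the log2 fold change of FGF6 against vehicle at 4, 8 and 24 h, bars the standard error of the fit, and dotted lines a 1.5-fold change; most points of the purine, pyrimidine and folate enzymes lie right of 0, whereas Ctps2, Prps2 and Cmpk1 lie left of it at every time and Rrm1, Rrm2, Tyms, Tk1 and Dck move from left to right between 4 and 24 h.

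Transcripts of Cad and Umps, the first and last enzymes toward UMP, were higher with FGF6 at every time. Dhodh, between them, was called higher at 4 and 8 h. Cad, a single protein with the first 3 activities of the pathway (chromosome 5, 31054780-31078479), stood at 220.6, 213.7 and 205.3 CPM in the vehicle libraries at 24 h and at 411.3, 410.3 and 411.9 CPM with FGF6. The groups lay far apart, with a fold of 1.93 (log2 fold change 0.95, SE 0.04, adjusted p = 2.2e-17, and 0.96 without the third vehicle library). Its effect grew with time, being 0.35 at 4 h and 0.74 at 8 h, and the vehicle level itself was lower at 24 h than at 4 h by 0.66 (log2 fold change -0.66, adjusted p = 1.69e-13).

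Umps, which makes UMP from orotate, rose most at 8 h. Its levels were 110.0, 107.8 and 112.7 CPM in vehicle and 194.3, 193.3 and 194.5 CPM with FGF6. The libraries did not overlap, and the fold was 1.76 (log2 fold change 0.82, SE 0.03, adjusted p = 2.72e-17). Dhodh, the mitochondrial enzyme between Cad and Umps, was 1.4-fold higher at 8 h (adjusted p = 3.84e-10). At 24 h its log2 fold change was 0.10 (adjusted p = 0.0516), and 0.16 (adjusted p = 0.00959) without the third vehicle library. The gene passed the threshold when any 1 of 5 of the 6 libraries at 24 h was left out (adjusted p = 0.00848 to 0.0383). In those 5 fits the median of all genes moved by 0.03 to 0.04.

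The 2 CTP synthases moved in opposite directions. Ctps2 fell with FGF6 at 8 h from 82.6, 84.9 and 84.5 CPM in vehicle to 42.2, 41.5 and 40.2 CPM. This fold of 0.492 (log2 fold change -1.02, SE 0.04, adjusted p = 2.82e-17) was the largest fall of any member at any time, and the FGF6 libraries lay well below vehicle at 4 and 24 h too, with log2 fold changes of -0.85 and -0.44. Ctps was higher at every time, by 0.21, 0.29 and 0.46 on the log2 scale. The 24 h values were -0.38 for Ctps2 and 0.51 for Ctps without the third vehicle library. Per kilobase of exon, Ctps was the more abundant of the pair, with 53.5 CPM in vehicle and 65.5 with FGF6 at 8 h, against 17.8 and 8.75 for Ctps2.

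**Figure D2:**
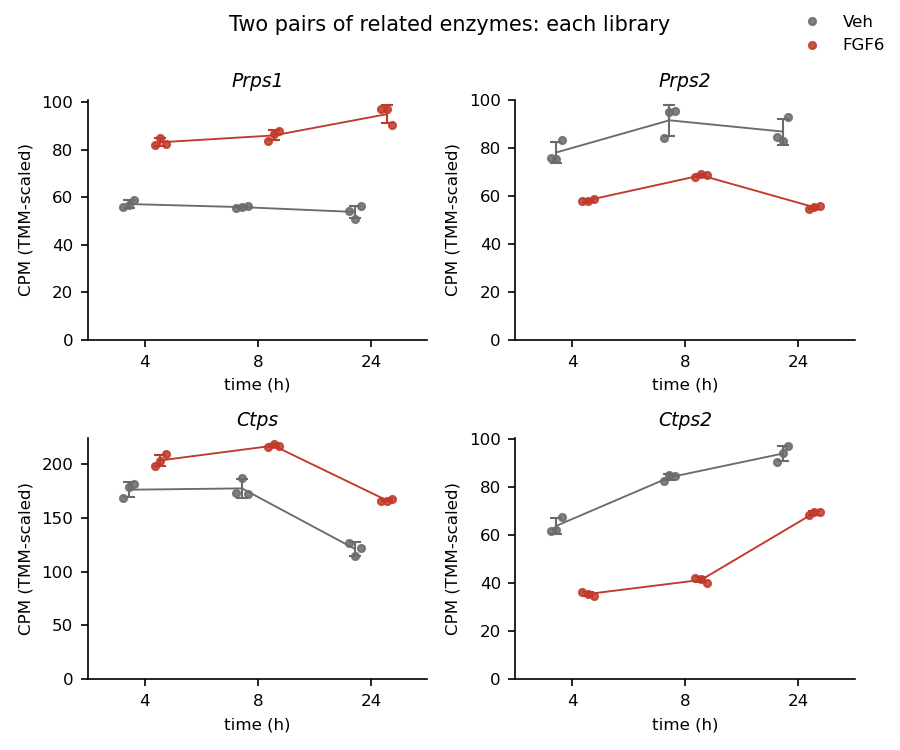
Levels of Prps1, Prps2, Ctps and Ctps2 in every library. Each point is 1 library in CPM scaled by TMM factors, lines join group means, bars are SD of 3 libraries, and the 3 times are evenly spaced; Prps1 and Ctps are higher with FGF6 and Prps2 and Ctps2 lower at each time, with no overlap.

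The same contrast appeared in the 2 synthetases that make activated ribose, both on chromosome X. Prps1 stood at 54.0, 51.0 and 56.4 CPM in vehicle and at 97.1, 97.0 and 90.5 CPM with FGF6 at 24 h, a fold of 1.77 (log2 fold change 0.82, SE 0.04, adjusted p = 1.65e-15, and 0.90 without the third vehicle library). Prps2 stood at 84.7, 82.9 and 93.1 CPM in vehicle and at 54.7, 55.5 and 55.9 CPM with FGF6, a fold of 0.638 (log2 fold change -0.65, SE 0.05, adjusted p = 1.25e-11, and -0.56 without that library). Neither pair of groups overlapped. Per kilobase, Prps1 and Prps2 were at 27.0 and 22.4 CPM in vehicle and at 47.6 and 14.3 CPM with FGF6 at 24 h.

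Ppat, the committed step of purine synthesis, rose most among the purine enzymes at 4 and 8 h. At 8 h it stood at 62.8, 61.6 and 63.3 CPM in vehicle and at 139.6, 146.6 and 139.7 CPM with FGF6. The fold was 2.27 (log2 fold change 1.18, SE 0.03, adjusted p = 1.16e-20), and already at 4 h every FGF6 library (132.4 to 139.0 CPM) lay above every vehicle library (73.3 to 77.1 CPM). At 24 h its effect was 1.02, and 1.05 without the third vehicle library.

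Paics, which carries out later steps of the same pathway, hardly moved beside it. Ppat (chromosome 5, 76913249-76951578, minus strand) and Paics (76951307-76967509, plus strand) start against each other in the genome, and 272 exonic bases of GENCODE M21 belong to both, which is 6.2% of Ppat and 8.7% of Paics. Paics was 1.06-fold, 1.19-fold and 1.11-fold higher at 4, 8 and 24 h, with libraries that did not overlap. Its 24 h log2 fold change was 0.16, and 0.21 without the third vehicle library. The call at 4 h (log2 fold change 0.08, adjusted p = 0.0467) was lost without the first or the second vehicle library (adjusted p = 0.213 and 0.1), and with library sizes in place of TMM factors the value was -0.02. Paics was also the more abundant of the pair per kilobase, with 79.3 CPM in vehicle at 8 h against 14.1 for Ppat, and whether the counting used strand is not given in the sources used here.

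Pfas and Gart, which act between Ppat and Paics, followed Ppat. Pfas had 55.1, 56.2 and 51.8 CPM in vehicle and 118.4, 121.4 and 122.4 CPM with FGF6 at 24 h. Its fold of 2.22 (log2 fold change 1.15, SE 0.04, adjusted p = 4.2e-19, and 1.16 without the third vehicle library) was the largest rise of any member at that time. In vehicle its level fell between every pair of times, by 1.02 on the log2 scale from 4 to 24 h (adjusted p = 4.13e-17).

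Gart had 97.8, 100.2 and 96.2 CPM in vehicle and 179.1, 179.5 and 178.6 CPM with FGF6 at 24 h, a fold of 1.83 (log2 fold change 0.87, SE 0.03, adjusted p = 9.88e-18). The groups did not overlap, and the log2 fold change was 0.90 without the third vehicle library. An antisense gene, Gm15964, covers 19.7% of the exonic bases of Gart, so that reads of the 2 cannot be told apart if strand was not used.

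Adsl and Atic, the enzymes of the last steps to IMP, had their largest folds at 8 h, although for Atic the 24 h effect was not called different from it (-0.07, adjusted p = 0.208). Adsl, which also acts on the way to AMP, went from 64.3, 64.3 and 61.6 CPM in vehicle to 120.4, 129.7 and 120.3 CPM with FGF6, a fold of 1.95 (log2 fold change 0.96, SE 0.04, adjusted p = 6.89e-17). Atic went from 154.5, 154.2 and 145.7 to 269.1, 271.9 and 268.8 CPM, a fold of 1.78 (log2 fold change 0.83, SE 0.03, adjusted p = 1.84e-18). Both were clear of overlap at all times, and the effect on Atic was larger at 8 h than at 4 h by 0.58 (SE 0.04, adjusted p = 1.14e-10).

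**Figure D3:**
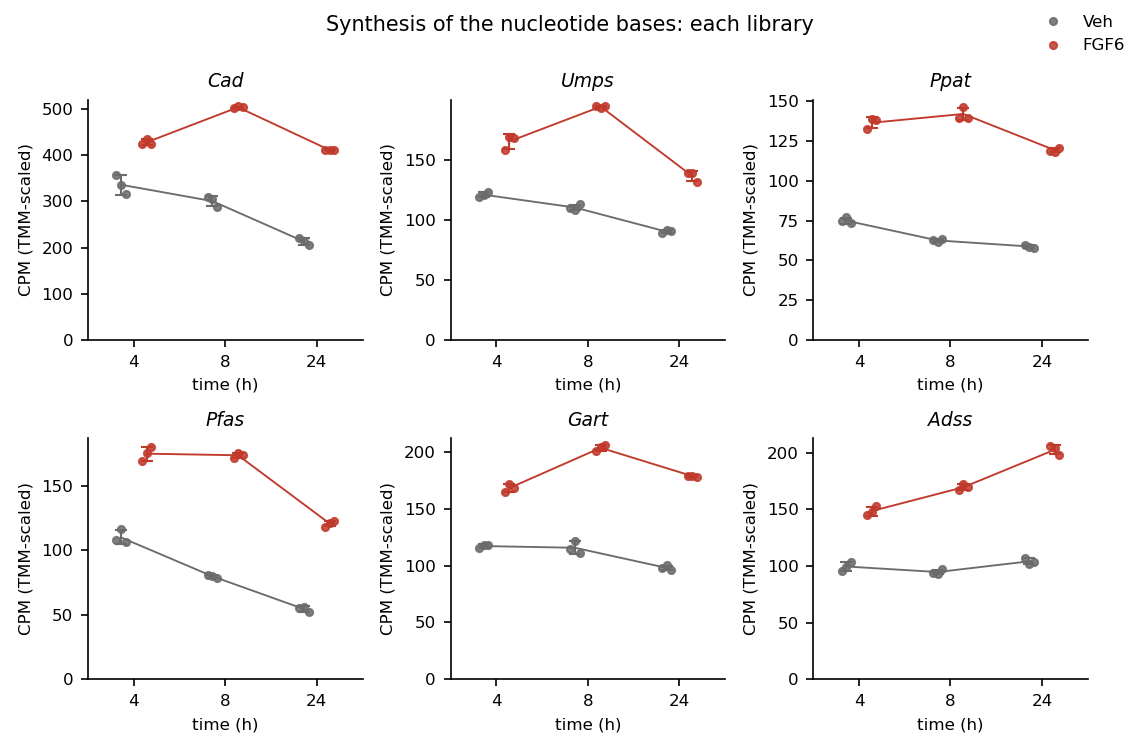
Levels of 6 enzymes of pyrimidine and purine synthesis in every library. Each point is 1 library in CPM scaled by TMM factors, lines join group means, bars are SD of 3 libraries, and the 3 times are evenly spaced; FGF6 libraries lie above vehicle in every panel, and the vehicle level of Cad, Umps, Ppat and Pfas is lower at 24 h than at 4 h.

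On the branch to AMP, Adss, the synthetase that joins aspartate to IMP, had 107.1, 102.0 and 103.2 CPM in vehicle and 206.0, 204.3 and 198.1 CPM with FGF6 at 24 h. This was a fold of 1.95 (log2 fold change 0.96, SE 0.03, adjusted p = 1.46e-18, and 1.00 without the third vehicle library). On the branch to GMP, Gmps, the last enzyme, had 126.9, 124.8 and 132.1 CPM in vehicle and 205.3, 199.3 and 195.5 CPM with FGF6 at 24 h. The fold was 1.56 (log2 fold change 0.65, SE 0.04, adjusted p = 1.1e-14, and 0.71 without that library), and the groups of both genes were apart.

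Impdh1 and Impdh2, the 2 forms of the rate-limiting enzyme of GMP synthesis, were both higher at each time. Impdh1 was 1.14-fold, 1.16-fold and 1.32-fold higher at 4, 8 and 24 h, and Impdh2 1.16-fold, 1.43-fold and 1.43-fold. Without the third vehicle library, the 24 h log2 fold changes were 0.44 and 0.55. At 4 h, both calls were lost when library sizes were used without TMM factors, with log2 fold changes of 0.08 and 0.11, and that of Impdh2 also without the first or the second vehicle library (adjusted p = 0.0504 and 0.0982). Impdh2 was the member with the second lowest level per kilobase in vehicle at 4 h, at 7.50 CPM, above Dhodh at 5.17.

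Of the 7 enzymes of deoxynucleotide supply, 5 (Rrm1, Rrm2, Tyms, Tk1 and Dck) were lower with FGF6 at 4 h and 2 (Dut and Dtymk) were higher. Over all genes, 34.2% were called lower and 28.6% higher at that time. At 24 h 5 of the 7 were higher and 0 lower (6 and 0 without the third vehicle library), against 35.9% and 37.9% of all genes (36.8% and 34.2%). Their median log2 fold change was -0.24 at 4 h, 0.01 at 8 h and 0.33 at 24 h. The effect at 24 h was above that at 4 h in all 7 by the test of the difference, by 0.14 to 0.87 on the log2 scale. Of all genes, 28.3% were called in that direction by the same test.

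Rrm2, the small subunit of ribonucleotide reductase (chromosome 12, 24708241-24714146), turned from lower to higher. At 4 h it stood at 214.2, 196.6 and 202.9 CPM in vehicle and at 173.0, 164.5 and 155.1 CPM with FGF6, and at 24 h at 223.6, 208.8 and 219.1 CPM in vehicle and at 323.8, 318.1 and 316.4 CPM with FGF6. The libraries did not overlap at either time, lying below vehicle at 4 h and above it at 24 h. The log2 fold changes were -0.32 (SE 0.04, adjusted p = 9.73e-08), 0.24 at 8 h and 0.56 (SE 0.04, adjusted p = 1.24e-12), and the 24 h effect exceeded the 4 h effect by 0.87 (SE 0.05, adjusted p = 7.34e-13). Without the third vehicle library the 24 h value was 0.60.

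Rrm1, the large subunit, was lower at 4 and 8 h and level with vehicle later. FGF6 libraries had 227.3 to 233.7 CPM at 4 h, below the 307.6 to 319.4 CPM of vehicle (log2 fold change -0.43, adjusted p = 9.16e-12). At 24 h the groups overlapped, with 448.4 to 463.0 CPM against 426.7 to 460.7 CPM. The log2 fold change there was 0.04 (adjusted p = 0.273), and 0.11 (adjusted p = 0.0046) without the third vehicle library, the highest of its group. Leaving out any 1 of 4 of the 6 libraries gave a call (adjusted p = 0.0046 to 0.0438). In these 4 fits the median of all genes moved by 0.03 to 0.04.

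Tk1, the thymidine kinase of dividing cells, showed the largest fall of this set, at 4 h. It had 50.3 to 52.8 CPM with FGF6 and 75.8 to 77.1 CPM in vehicle (log2 fold change -0.56, SE 0.04, adjusted p = 1.91e-12). At 24 h the groups overlapped (105.5 to 113.5 CPM in vehicle, 108.0 to 117.8 CPM with FGF6; log2 fold change 0.05, adjusted p = 0.172, and 0.07 without the third vehicle library, adjusted p = 0.0964). A call was made there when the first or the third FGF6 library or the first vehicle library was left out (0.10 to 0.13). With these left out in turn, the median of all genes moved by 0.03 to 0.04. In vehicle Tk1 was higher at 8 h than at 4 h by 0.57 on the log2 scale (adjusted p = 2.52e-12), and 6 of the 7 genes of this set were called higher in that comparison, against 21.2% of all genes.

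Tyms, thymidylate synthase, was lower at 4 and 8 h, by log2 fold changes of -0.24 and -0.23, and higher at 24 h by 0.10 (adjusted p = 0.00604, and 0.14 without the third vehicle library). Dck, the kinase of deoxycytidine, went from -0.22 at 4 h through 0.01 at 8 h, where the groups overlapped (adjusted p = 0.786), to 0.33 at 24 h (0.40 without that library). Dut, which removes dUTP, and Dtymk, which makes dTDP, were higher at every time, with log2 fold changes between 0.18 and 0.43. At 24 h they had 0.37 and 0.50 without the third vehicle library.

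**Figure D4:**
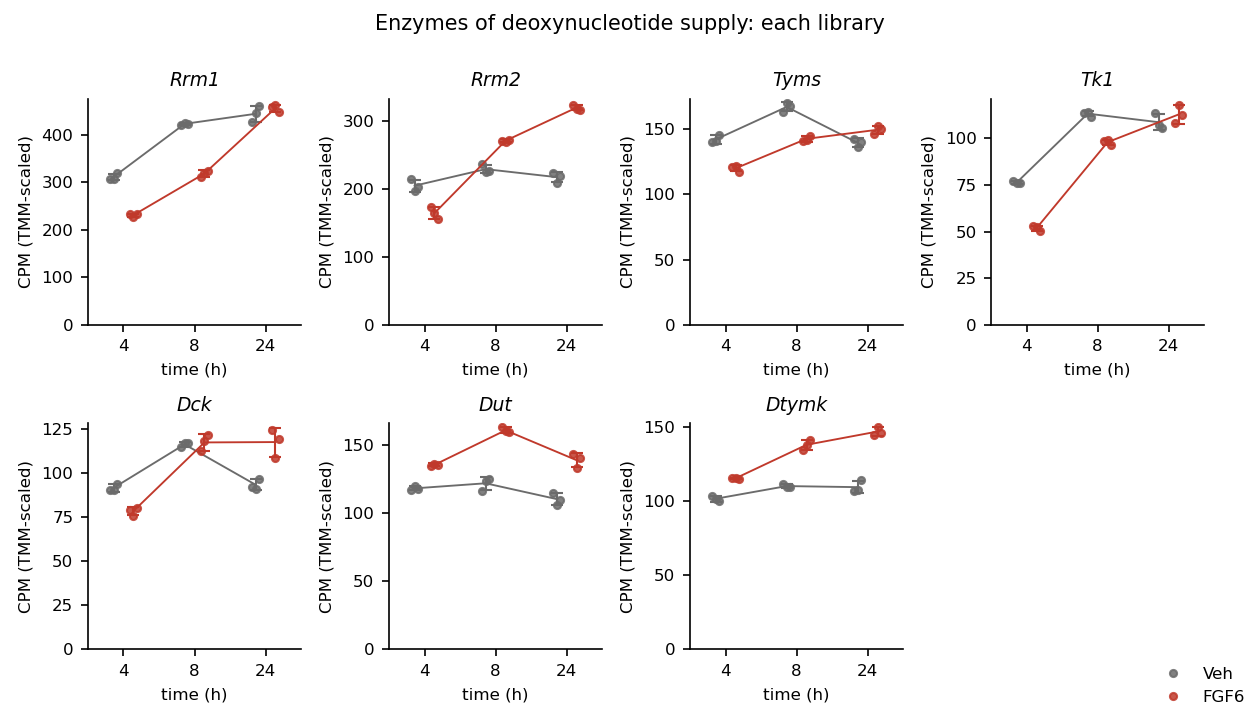
Levels of the 7 enzymes of deoxynucleotide supply in every library. Each point is 1 library in CPM scaled by TMM factors, lines join group means, bars are SD of 3 libraries, and the 3 times are evenly spaced; for Rrm1, Rrm2, Tyms, Tk1 and Dck the FGF6 line starts below vehicle at 4 h and reaches or passes it by 24 h, whereas Dut and Dtymk stay above vehicle.

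Genes of DNA replication and the cell cycle, read beside these enzymes, shifted in time as well. Of 16 such markers, 6 were higher and 7 lower at 4 h, 9 and 5 at 8 h, and 12 and 2 at 24 h (13 and 1 without the third vehicle library), and their median log2 fold changes were 0.02, 0.16 and 0.28. Over all genes, 28.6% were called higher and 34.2% lower at 4 h, and 32.4% and 38.4% at 8 h. At 24 h these shares were 35.9% and 37.9%, or 36.8% and 34.2% without that library. Mki67, a protein of dividing cells, had a log2 fold change of -0.91 at 4 h, -0.86 at 8 h and -0.11 at 24 h, the last call being lost without the third vehicle library (-0.03, adjusted p = 0.516). Top2a, the topoisomerase of late S and G2 phase, went from -0.56 at 4 h to 0.46 at 24 h (0.53 without that library). These 2 had the largest falls of the list at 4 h. In the other direction, 6 markers were called higher at every time, among them the replication clamp Pcna (0.21, 0.24 and 0.31 at 4, 8 and 24 h) and the cyclins Ccne1 (0.13, 0.57 and 0.69) and Ccne2 (0.18, 0.38 and 0.67). Mcm3, Mcm7 and Gins2, which act in replication, were the remaining 3, with 24 h values of 0.24, 0.45 and 0.11. The 24 h values of the 6 were 0.16 to 0.73 when the third vehicle library was left out. With all 18 libraries, 2 markers were called lower at every time, Mki67 and the replication gene Mcm6 (-0.11, -0.13 and -0.34). Mcm2 and Mcm4 were not called at 24 h (0.03 and 0.05). The part of this shift in the levels of the deoxynucleotide enzymes was not tested.

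Among the nucleotide kinases, Uck2, which salvages uridine and cytidine, rose and Cmpk1, which phosphorylates UMP and CMP, fell. Uck2 had 91.4, 86.4 and 79.8 CPM in vehicle and 176.8, 167.4 and 164.6 CPM with FGF6 at 8 h, without overlap. The fold was 1.98 (log2 fold change 0.98, SE 0.05, adjusted p = 3.93e-15). Cmpk1 had log2 fold changes of -0.10, -0.32 and -0.33 at 4, 8 and 24 h (the last -0.27 without the third vehicle library), the first of which (adjusted p = 0.0203) was lost when the first or the third FGF6 library or the second vehicle library at 4 h was left out (adjusted p = 0.178, 0.22 and 0.0563).

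Nme1 and Nme2, which turn nucleoside diphosphates into triphosphates, lie next to each other on chromosome 11. Nme1 was 1.33-fold, 1.43-fold and 1.49-fold higher at the 3 times, the last a log2 fold change of 0.57 (0.62 without the third vehicle library). Nme2 was 1.18-fold and 1.37-fold higher at 4 and 8 h, the call at 4 h being lost without the third vehicle library of that time (adjusted p = 0.0575). At 24 h its groups overlapped (15.8 to 17.0 CPM in vehicle, 15.9 to 17.9 CPM with FGF6; log2 fold change 0.03, adjusted p = 0.699, and 0.05 without the third vehicle library, adjusted p = 0.618). A readthrough gene on the same strand, Gm20390, holds 48.9% of the exonic bases of Nme2 and 12.5% of those of Nme1, and the counts of both are therefore uncertain.

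The 5 folate enzymes rose together, 4 of 5 at 4 h and 5 of 5 at 8 and 24 h, with median log2 fold changes of 0.33, 0.64 and 0.80. Over all genes, 28.6%, 32.4% and 35.9% were called higher at the 3 times. Of 16 further genes of the folate cycle and transport that were tested, 6 were higher and 5 lower at 4 h. These counts were 6 and 7 at 8 h, and 5 and 5 at 24 h, with median log2 fold changes of -0.12, -0.09 and -0.07. Shmt1, the cytosolic enzyme that takes carbon from serine (chromosome 11, 60788104-60811718), had 45.9, 43.5 and 46.4 CPM in vehicle and 114.1, 116.3 and 118.2 CPM with FGF6 at 8 h. Its fold of 2.57 (log2 fold change 1.36, SE 0.04, adjusted p = 2.79e-20) was the largest of any member at any time. The rise was smaller at 24 h, where it was 0.72 (0.75 without the third vehicle library), and the difference of -0.64 from the 8 h effect passed the test (adjusted p = 6.74e-10).

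Shmt2, the mitochondrial form, was the most abundant member per kilobase of exon in 5 of the 6 groups, at 195.1 CPM in vehicle at 4 h. In vehicle at 24 h it stood at 94.8, beside 94.9 for Paics. At 24 h its libraries had 314.3, 290.6 and 279.4 CPM in vehicle and 545.8, 563.1 and 563.3 CPM with FGF6. The fold was 1.89 (log2 fold change 0.92, SE 0.04, adjusted p = 1.82e-17, and again 0.92 without the third vehicle library). The groups were apart at every time, and the rise at 4 h was 1.26-fold.

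Mthfd1l was the folate enzyme that was not yet higher at 4 h. This enzyme, which releases formate from the mitochondrion, had overlapping groups at 4 h (log2 fold change 0.04, adjusted p = 0.311) and at 24 h had 148.3, 153.0 and 149.4 CPM in vehicle and 273.1, 268.9 and 269.6 CPM with FGF6. That was a fold of 1.80 (log2 fold change 0.85, SE 0.03, adjusted p = 6.71e-18, and 0.89 without the third vehicle library). The effect at 24 h lay above that at 4 h by 0.81 (SE 0.05, adjusted p = 8.87e-14, and 0.82 without that library), the largest such difference after that of Rrm2. Over that span its level moved by 0.03 on the log2 scale with FGF6 and by -0.78 in vehicle.

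Mthfd2, its partner in the mitochondrion, had 127.2, 121.0 and 119.4 CPM in vehicle and 215.5, 211.5 and 213.9 CPM with FGF6 at 24 h (fold 1.74, log2 fold change 0.80, SE 0.05, adjusted p = 2.2e-14, and 0.82 without the third vehicle library). Mthfd1, the cytosolic enzyme with 3 activities, had 143.5, 136.1 and 141.2 CPM in vehicle and 232.9, 242.6 and 243.6 CPM with FGF6 (fold 1.71, log2 fold change 0.77, SE 0.03, adjusted p = 4.35e-17, and 0.82 without that library). Neither overlapped between groups at any time.

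**Figure D5:**
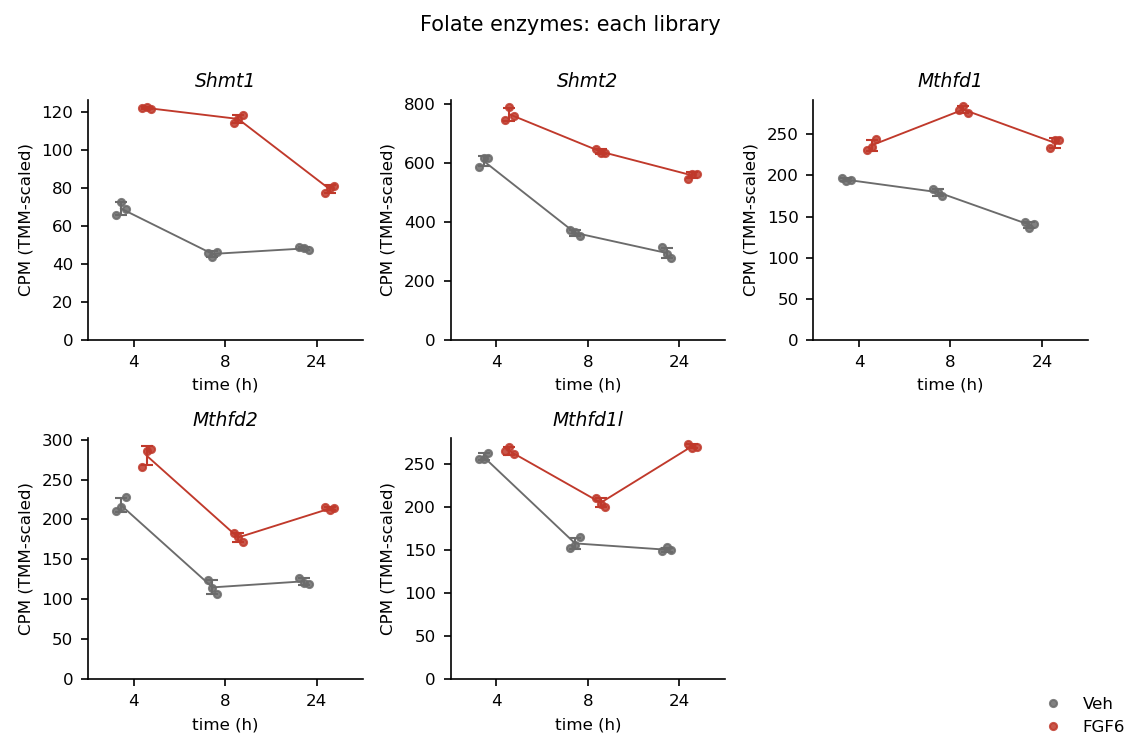
Levels of the 5 folate enzymes in every library. Each point is 1 library in CPM scaled by TMM factors, lines join group means, bars are SD of 3 libraries, and the 3 times are evenly spaced; all 5 drop in vehicle between 4 and 8 h and lie higher with FGF6 at 8 and 24 h, and Mthfd1l overlaps between the groups at 4 h.

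The vehicle cells were themselves not constant, which bears on what a fold at each time is measured against. All 5 folate enzymes were lower in vehicle at 8 h than at 4 h, with log2 fold changes of -0.92 for Mthfd2, -0.74 for Shmt2, -0.71 for Mthfd1l, -0.61 for Shmt1 and -0.12 for Mthfd1. Over the 33 members, 11 were called higher and 13 lower in vehicle from 4 to 8 h (21.2% and 21.7% of all genes), 4 and 16 from 8 to 24 h (25.5% and 23.7%), and 9 and 18 from 4 to 24 h (30.9% and 30%). From 4 to 24 h the largest falls in vehicle were those of Shmt2 (-1.04) and Pfas (-1.02), and the largest rise was that of Ctps2 (0.56). With FGF6 over the same span, the log2 levels of the folate enzymes moved by 0.02 for Mthfd1, 0.03 for Mthfd1l, -0.39 for Mthfd2, -0.46 for Shmt2 and -0.62 for Shmt1. Without the third vehicle library at 24 h, 4 members were higher and 16 lower in vehicle from 8 to 24 h (23.1% and 21.6% of all genes), and 7 and 19 from 4 to 24 h (27.3% and 29.3%). These comparisons share vehicle libraries with each other, and whether medium or density changed over the course is not given in the sources used here.

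Tested as a difference of effects, the signed log2 effect of FGF6 was higher at 8 h than at 4 h in 22 members and lower in 2, Ctps2 and Cmpk1 (15.5% and 15.1% of all genes). That of Ctps2 (-0.18) did not pass when any 1 of 6 of the 12 libraries was left out (adjusted p up to 0.102). From 8 to 24 h it was higher in 15 and lower in 7 (22.6% and 22.5%), and from 4 to 24 h higher in 26 and lower in 2 (28.3% and 25.2%). Without the third vehicle library at 24 h these counts were 14 and 7 (21.5% and 21.4%) and 26 and 1 (28.1% and 22.9%). With any 1 library left out, the members with a higher effect at 24 h than at 8 h ranged from 11 to 16. Among them, Adss (0.12) did not pass when any 1 of 9 of the 12 libraries was left out. Those whose signed effect was lower at 24 h than at 8 h were Dhodh, Umps, Prps2, Ppat, Adsl, Nme2 and Shmt1; for Prps2, already lower with FGF6, this means a deeper fall. The 2 lower at 24 h than at 4 h were Prps2, which did not pass without the third vehicle library at 24 h (-0.16, adjusted p = 0.0528), and Cmpk1.

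Of 72 further genes of nucleotide salvage, breakdown, transport, folate and serine metabolism, 65 were tested, of which 26 were higher and 25 lower at 4 h, where 28.6% and 34.2% of all genes were. They were 29 and 21 at 8 h (32.4% and 38.4% of all genes), and 33 and 19 at 24 h (35.9% and 37.9%), or 34 and 18 without the third vehicle library. Their median log2 fold changes were 0.01, 0.07 and 0.20, against -0.05, -0.05 and -0.02 over all genes. The 3 genes of serine synthesis, which feeds Shmt1 and Shmt2, were all higher at 4 and 24 h, with log2 fold changes at 24 h of 0.56 for Phgdh, 0.64 for Psat1 and 0.23 for Psph (0.58, 0.67 and 0.25 without that library).

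The largest changes of this wider list were in salvage and breakdown. Upp1, uridine phosphorylase, stood at 0.631, 0.513 and 0.925 CPM in vehicle and at 13.0, 12.4 and 9.95 CPM with FGF6 at 24 h. The level was low but the groups did not overlap, and the log2 fold changes were 2.90, 3.97 and 4.13 at 4, 8 and 24 h (SE 0.27, 0.27 and 0.21; the last 4.41 without the third vehicle library). Nt5e, the ectonucleotidase CD73, rose by 3.76 on the log2 scale at 24 h (SE 0.17, adjusted p = 2.22e-16, and 3.69 without that library), from 0.589 to 0.806 CPM in vehicle to 8.50 to 11.0 CPM. Gda, guanine deaminase, rose by 0.94 on the log2 scale at 4 h.

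Of the 3 nucleoside carriers tested, 2 were higher and 1 lower at each time. Slc29a2 had log2 fold changes of 1.30, 1.99 and 1.81 (the last 1.86 without the third vehicle library). Slc29a1 had 1.44 at 8 h but 0.11 at 24 h (0.16 without that library). Slc29a3 was the one that fell, with -0.42, -0.59 and -0.71 (-0.62 without it).

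Among the falls, Cmpk2, a mitochondrial nucleotide kinase known as an interferon-induced gene, had 75.5, 92.2 and 88.3 CPM in vehicle and 3.68, 3.61 and 4.95 CPM with FGF6 at 24 h. It fell at 8 h (log2 fold change -1.33) and further at 24 h (-4.39, SE 0.29, adjusted p = 6.15e-13, and -4.32 without the third vehicle library). Xdh, which makes uric acid, fell by 1.16 at 8 h and 1.30 at 24 h on the log2 scale (-1.26 without that library). Ampd3, an AMP deaminase, fell by 1.94 on that scale at 24 h (-1.92 without it), and Aldh1l1, a folate dehydrogenase, by 1.40 at 8 h from a low level. At 4 h the largest falls were those of the adenylate kinases Ak5 (-0.95) and Ak1 (-0.76) and of Adssl1 (-0.91), the muscle form of Adss.

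Of the regulators whose letters were searched above, Myc changed most. It stood at 82.1, 77.2 and 74.3 CPM in vehicle and at 308.5, 326.2 and 321.3 CPM with FGF6 at 4 h, and its log2 fold changes were 2.03, 2.31 and 1.74 at 4, 8 and 24 h (SE 0.05, 0.06 and 0.06; 1.75 at 24 h without the third vehicle library). Its partner Max was higher at 4 and 8 h (0.44 and 0.37) but not at 24 h (-0.04, adjusted p = 0.334, and -0.01 without that library). E2f3 rose at each time, with log2 fold changes of 0.74, 0.88 and 0.89 (0.95 without it). E2f1 had -0.01, 0.58 and 0.38, and E2f2 -0.37, 0.52 and 1.21, the latter being called lower at 4 h and higher later; their 24 h values without that library were 0.41 and 1.36. Atf4 had -0.07 at 4 h (adjusted p = 0.117), 0.22 at 8 h and 0.18 at 24 h (0.22 without it), and Mycn, with at most 3 counts in any library, was not tested. The part of these factors in the levels of the enzymes was not tested.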

How the data were processed

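Alignment by the authors used STAR and the GRCm38.p4 assembly, featureCounts of the Subread package counted reads over GENCODE genes, and the deposited values are raw counts in a single table; versions, strand setting and annotation release are not given in the sources used here. Groups and replicate numbers came from the labels, which do not say that replicates were separate cultures, so that p-values measure only the spread between these libraries. These counts were filtered with filterByExpr, scaled by TMM factors and fitted to the 6 group means over all 18 libraries with edgeR 4.0.16 in R 4.3.3 (quasi-likelihood test, Benjamini-Hochberg adjustment over 15071 genes, FDR under 0.05; the study used voom, limma and 0.25). The script was tested on simulated counts. CPM are counts per 1000000 of the TMM-scaled total. Gene names, lengths and overlaps came from GENCODE M21, which held 98.5% of the identifiers.

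Library values were printed for the 18 members with FDR under 0.05, a fold of at least 1.5 and no overlap at any time, at the time of their largest fold, and for the member with the smallest adjusted p of a role without one (Rrm2). From the wider list, the 3 largest rises and falls at each time with a mean of at least 1 CPM were named, and from the others the regulators. Chosen after their values were seen were Mki67, Top2a, Pcna, Mcm2, Mcm3, Mcm4, Mcm6, Mcm7, Gins2, Ccne1, Ccne2, Slc29a3, Phgdh, Psat1, Psph, Cd34, Cd68, Csf1r, Lyz2, Cdh5, Kdr, Fabp4, Adipoq, Plin1 and Cidec. So were the remaining ranges and the 4 h values of Rrm2 and Ppat. The members and lists were chosen with earlier results of these data known. Alternatives were limma 3.58.1 with voom, DESeq2 1.42.0, other scalings and filters, the libraries of 1 time point, a replicate block and each library left out. The smallest p of an exact permutation test on 3 against 3 libraries is 0.1.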

Additional observations from a re-analysis of the deposited data

Results flagged for a closer look

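The effect of FGF6 differed between times, by the edgeR test of the difference, in 24 members when 8 h was set against 4 h, in 22 when 24 h was set against 8 h, and in 28 when 24 h was set against 4 h. Of all genes, 15.5% had a higher and 15.1% a lower effect at 8 h than at 4 h. These shares were 22.6% and 22.5% from 8 to 24 h, and 28.3% and 25.2% from 4 to 24 h. Rrm2 turned from lower to higher between 4 and 8 h (difference 0.56 on the log2 scale) and stood 0.87 above its 4 h effect at 24 h. Tyms turned from lower to higher by 24 h, where its effect lay above that at 8 h by 0.33 and above that at 4 h by 0.34, and so did Dck from 4 h (0.56). Without a turn, the effect at 24 h exceeded that at 4 h by 0.60 for Cad, 0.61 for Tk1 and 0.81 for Mthfd1l, and that of Shmt1 was 0.64 lower at 24 h than at 8 h (difference -0.64).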

How the results depend on the processing

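Of the 93 calls of a member at 4, 8 or 24 h, limma with voom and the replicate block each kept all 93, and the other settings run on all 3 times lost 1 to 4. With one library left out, 0 to 3 of the calls of that time were lost; the calls lost under these settings were those of Cmpk1, Impdh1, Impdh2, Nme2 and Paics at 4 h and of Tyms at 24 h (adjusted p = 0.0506 without a filter). Deviations of same-numbered libraries correlated at -0.028 to 0.049, and those of differently numbered libraries at -0.045 to 0.049. No pairing by number was therefore seen, although such values cannot show that same-numbered libraries were prepared apart. A replicate block changed no count of calls by more than 1.5 times. With library sizes alone, the median of all genes at 4 h moved by -0.1, the median of the members was 0.15 at 4 h and 0.43 at 8 h, 2 members were at least 1.5-fold higher and 2 at least 1.5-fold lower at 4 h, and Paics (-0.02) and Mthfd1l (-0.06) at 4 h and Dck (-0.05) at 8 h changed sign, none of them called; the effect was lower in 1 member from 4 to 8 h and in 1 from 4 to 24 h, and 2 were higher in vehicle from 8 to 24 h. With upper-quartile factors, 2 members were at least 1.5-fold lower at 4 h, the 8 h median was 0.44, and Mthfd1l at 4 h (-0.02) and Dck at 8 h (-0.03) changed sign. The 8 h median was 0.53 with DESeq2 and 0.52 with the libraries of that time only. The effect was lower in 1 member from 4 to 8 h without a filter, and from 4 to 24 h in 4 with at least 10 counts in every library and in 5 at an FDR of 0.25, where 8 were higher in vehicle from 8 to 24 h. The cause of these shifts was not tested.

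With one library left out, the median ranged from 0.43 to 0.52 at 8 h and from 0.56 to 0.63 at 24 h, the members at least 1.5-fold lower at 24 h from 0 to 1, the members with a lower effect from 1 to 2 (4 to 8 h) and from 1 to 3 (4 to 24 h), and the uncalled Nme2 at 24 h from -0.01 to 0.11. No library has the depth to limit these members, whose counts were 313 or more.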
